A study of Homo sapiens with 8 samples.

Results

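The untreated pair of arrays compared here held RNA of MCF10A, an immortalised but non-tumorigenic line of human mammary epithelial cells, harvested at 0 h without doxorubicin (adriamycin, ADR). The members were chosen by their labels alone, as the 2 of 8 arrays of the series that were labelled 0 h and untreated, 1 labelled p53+/+ (wild-type p53) and 1 labelled p53-/- (p53-null). The study set wild-type cells against p53-null cells to find p53-regulated genes. The other 6 arrays, 1 per genotype and time point, held RNA taken at 12, 24 and 48 h after a 2 h exposure to ADR, at 0.5 µg/ml according to the sample labels, whereas the methods of the study give another dose. How the p53-/- line was derived from MCF10A, and whether it is 1 clone, is not given in the sources used here. There was 1 array a side, so no difference has a replicate error or a test, and clone, culture and array cannot be told apart from genotype. All 8 arrays lay on 1 slide, with the p53-/- labels on one row and the p53+/+ labels on the other, so slide row and genotype label cannot be told apart either.

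p53 is a transcription factor that DNA damage stabilises. It switches on genes for cell cycle arrest, repair and cell death, and it lowers the expression of many cell cycle genes indirectly through p21, the CDK inhibitor encoded by CDKN1A. In unstressed wild-type cells its protein is kept low by MDM2, so differences between untreated wild-type and p53-null cells are usually smaller than those after damage. Growing epithelial cells also switch genes of DNA replication on before those of mitosis as they pass through the cell cycle, and they make inflammatory cytokines through NF-kB.

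A level here is the processed signal of a probe relative to the 75th percentile of its array, on the log2 scale, and each difference is the 0 h array labelled p53+/+ minus the 0 h array labelled p53-/-. Where 2 levels are given together, the 0 h array labelled p53+/+ comes first. That percentile stood at a signal of 1014.9 on the 0 h array labelled p53+/+ and 879.3 on the 0 h array labelled p53-/-, and 55.22% and 55.89% of probes were well above background. The technical SD is the error of a difference on the log2 scale that repeat spots of one probe give on these 2 arrays. It covers spot noise only. Between the probes of a gene the spread was somewhat larger: among 542 genes with at least 3 probes well above background on both arrays, the median SD of the difference over probes was 0.16.

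Genes that separate the treated genotypes, chosen without either 0 h array, lay near the treated p53-/- level on both 0 h arrays. There were 115 genes that every treated p53+/+ array had at least 4-fold above every treated p53-/- array, with at most a 2-fold range within each genotype. On a scale where 0 is the treated p53-/- level and 1 the treated p53+/+ level, their median position was -0.01 on the 0 h array labelled p53+/+ and -0.001 on the 0 h array labelled p53-/-. A single gene of the 115, RAB25, lay nearer the treated p53+/+ level on the 0 h array labelled p53+/+. MYO6, NUPR1 and PCDHB16 did so on the 0 h array labelled p53-/-. For 72 genes lower on the treated p53+/+ arrays the medians were 0.06 and 0.03. These positions mix genotype and treatment, since the rule that chose the genes used arrays of treated cells. They therefore do not decide whether a 0 h label is right. Levels on the 0 h arrays, and on the treated arrays of the lower genotype, did not have to be well above background.

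**Figure D1:**
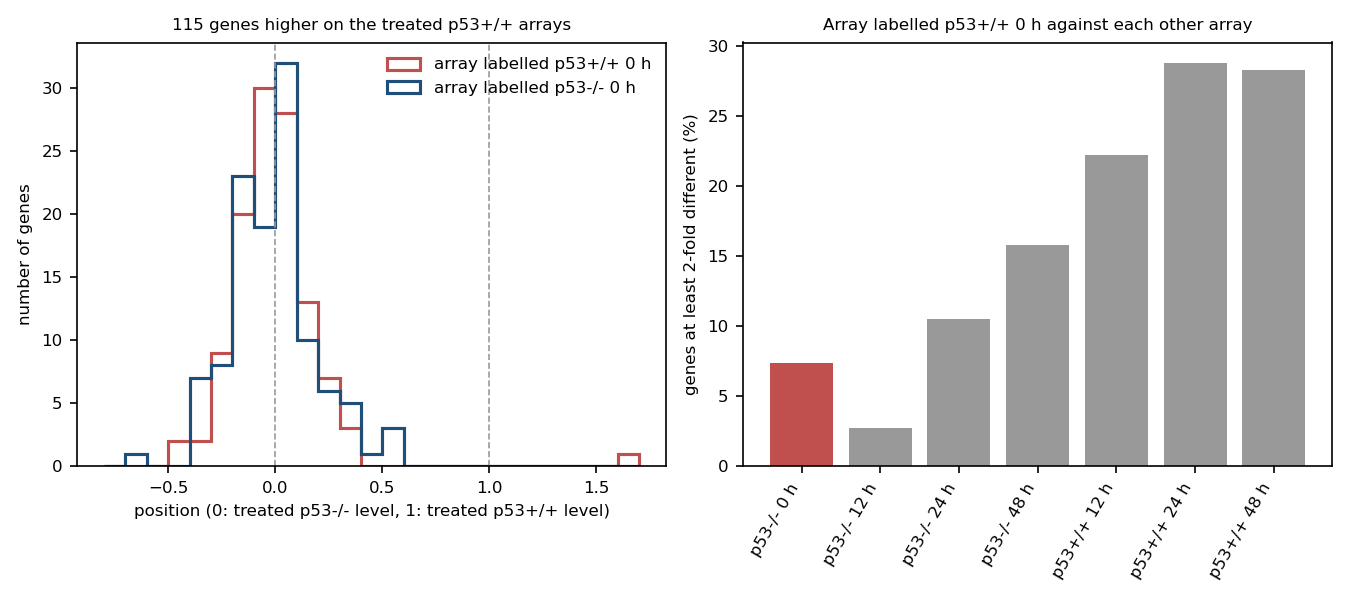
Left, the number of the 115 genes (vertical axis) by their position on each 0 h array, where 0 is the mean level of the treated p53-/- arrays and 1 that of the treated p53+/+ arrays. Both 0 h arrays centre near 0, with medians of -0.01 and -0.001. Right, the percentage of genes at least 2-fold different between the 0 h array labelled p53+/+ and each other array, lowest at 2.71% for p53-/- 12 h and 7.36% for p53-/- 0 h.

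The array labelled p53+/+ 0 h differed least from the 12 h array labelled p53-/-. Of 14003 genes measured there, 223 were at least 2-fold higher (1.59%) and 157 at least 2-fold lower (1.12%), together the smallest share of the 28 pairs of arrays. Its pair with the 0 h array labelled p53-/- came in position 5 of 28, at 7.36%. Against the arrays labelled p53+/+ 12, 24 and 48 h it differed in 22.2%, 28.8% and 28.3% of genes. Whether the 0 h array labelled p53+/+ is rightly labelled is not settled by these values. No value of the 0 h comparison can be given without that array. Every direction stated here is therefore that of the labels, and a difference of genotype is not shown by the comparison.

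Of 20292 genes with a matched probe, 13866 were well above background on at least 1 of the 2 arrays, 13000 of them on both. On the 0 h array labelled p53+/+, 431 genes (3.11%) were at least 2-fold higher and 590 (4.26%) at least 2-fold lower. At 4-fold these numbers were 48 and 75. The middle of the distribution did not move, with a median difference of 0.02 and 5% of genes under -0.93 and 5% above 0.84. Genes called higher made up 42.2% of all called genes, against 68.4% without scaling, which shifted the median difference to 0.23, and 52.2% with spike-in scaling, which shifted it to 0.11. Where another probe of a called gene was well above background on both arrays, every such probe had the same direction for 50 of 56 genes called higher and 87 of 97 called lower.

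**Figure D2:**
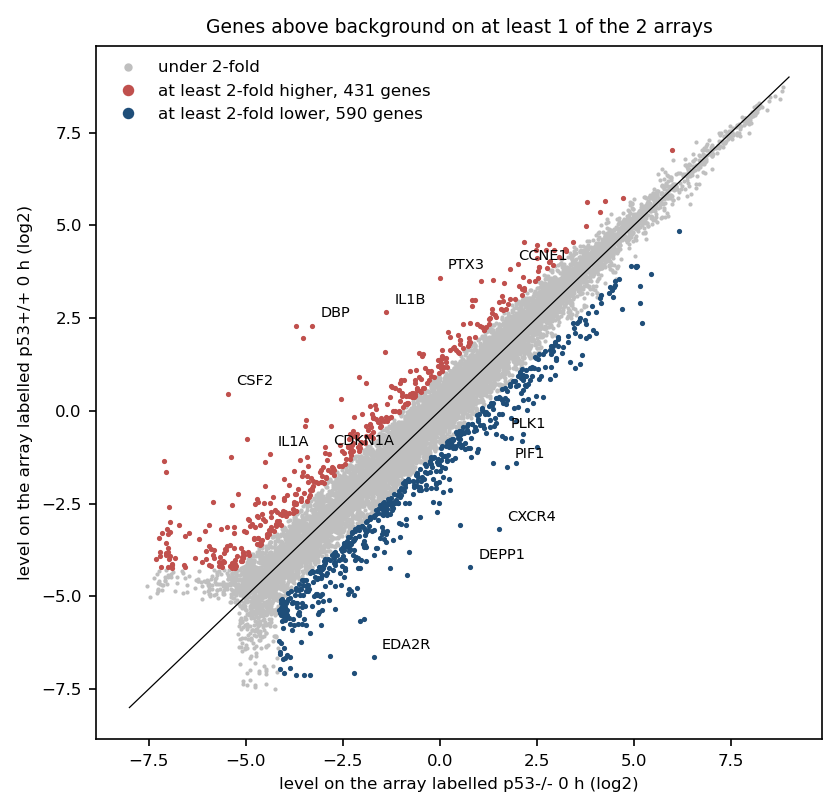
Each point is a gene, with its level on the 0 h array labelled p53-/- on the horizontal axis and on the 0 h array labelled p53+/+ on the vertical axis (log2 relative to the 75th percentile). Red genes (431) were at least 2-fold higher and blue genes (590) at least 2-fold lower on the 0 h array labelled p53+/+, and CSF2, DBP and IL1B lie far above the line of equal level while DEPP1 and CXCR4 lie far under it.

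Cytokines were among the largest differences towards the 0 h array labelled p53+/+, led by LIF and CSF2. LIF, a cytokine of the IL6 family, read 2.28 and -3.71, a 63.6-fold difference with a technical SD of 0.12. It had 2 probes, of which the one with the higher mean is given. CSF2, which encodes the growth factor GM-CSF, read 0.46 on the 0 h array labelled p53+/+ and -5.46, not well above background, on the other, so it was at least 52.1-fold higher. IL6 read 1.97 and -3.52, a 45.1-fold difference over 10 spots. In all 3 the 0 h array labelled p53-/- held the lowest level of the 8 arrays. LIF read from -0.74 to 0.20 on the treated p53-/- arrays and from 1.68 to 1.88 on the treated p53+/+ arrays, and IL6 from 1.08 to 2.50 and from -1.97 to -1.08. IL1B (2.67 and -1.39) and IL1A (-1.16 and -4.38), which encode the interleukin-1 cytokines, were 16.7-fold and 9.33-fold higher on the 0 h array labelled p53+/+. PTX3, a secreted pattern recognition protein, read 3.59 and 0.00 and was 12.1-fold higher.

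The other genes among the 10 largest were of mixed kinds. DBP, a transcription factor driven by the circadian clock, read 2.30 on the 0 h array labelled p53+/+ and between -4.03 and -2.29 on all 7 other arrays, 48.1-fold above the 0 h array labelled p53-/-. Its probe had 2 spots. TLL1, a metalloproteinase, NTNG2, an axon guidance protein, and RAB25, an epithelial RAB GTPase, were at least 18.6-fold, 16.0-fold and 14.8-fold higher, each on a single spot. TLL1 was left out when every single-spot probe bright on 1 array was left out.

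The largest differences the other way fell outside the cytokine genes. DEPP1, a gene that FOXO factors switch on, read -4.21 and 0.78, 31.8-fold lower on the 0 h array labelled p53+/+. CXCR4, the receptor of the chemokine CXCL12, read -3.19 and 1.52 over 10 spots and was 26.1-fold lower. For both genes the 0 h array labelled p53-/- was the highest of the 8. ATOH8, CCDC85A and NEURL1B were 12.1-fold, 12.0-fold and 11.2-fold lower. CCDC85A and NEURL1B had 2 probes each, of which the one with the higher mean is given. Under other processing choices the log2 difference of NEURL1B ranged from -3.54 to -1.81 and that of CCDC85A from -3.71 to -2.53. ZBTB16, a transcription factor that glucocorticoids induce, was 10.3-fold lower, and PIF1, a DNA helicase, 9.34-fold lower. EDA2R, PDE7B and STARD8 were not well above background on the 0 h array labelled p53+/+ and were at least 10.98-fold, 9.24-fold and 8.60-fold lower. Apart from CXCR4, and ZBTB16 with 2 spots, each of these genes was read on a single spot.

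Which of the pair stood at the end of the range of all 8 arrays was counted for the called genes. Of the 431 genes called higher, the 0 h array labelled p53-/- was the lowest of the 8 for 238 and the 0 h array labelled p53+/+ the highest for 165. Of the 590 called lower, the 0 h array labelled p53-/- was the highest for 330 and the 0 h array labelled p53+/+ the lowest for 200. Both held for 55 and 56 genes. The genes were called for a gap between this same pair of arrays, which by itself favours a place at the end of the range. Genes not called were not counted, and no share expected from the selection was worked out. These counts, and those of the same kind given for single lists, therefore only describe the called genes.

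Interleukins and NF-kB targets were called higher in a larger share than the 3.11% of all genes. NF-kB dimers are held in the cytoplasm by IkB proteins, and once released they switch on cytokines and their own inhibitors. Of 16 interleukin and IL6 family genes measured, 8 were at least 2-fold higher and 0 lower, with a median difference of 1.03 against 0.02 over all genes, which became 0.00 without a filter on dim probes. The other 8 did not reach 2-fold. After the 5 cytokines above, IL32, IL24 and CLCF1 differed by 1.88, 1.58 and 1.31 on the log2 scale. Among members within 2-fold, those with the highest levels were CSF3, which encodes G-CSF (2.16 and 2.43), IL18 (0.89 and 1.40) and IL15 (-0.02 and 0.64). OSM, TSLP and the IL36 cytokines were not well above background on either array.

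Of 24 genes of NF-kB feedback and its targets, 12 were higher, 1 was lower and 11 did not reach 2-fold, with a median of 0.98. ICAM1, a leukocyte adhesion molecule, read -0.25 and -3.45 over 10 spots, a 9.24-fold difference. TNFAIP3, the ubiquitin-editing enzyme A20 that limits NF-kB, read 0.93 and -2.08 and was 8.05-fold higher. CD83 (1.59 and -1.41) and IRF1 (0.74 and -1.90), an interferon regulatory factor, were 8.01-fold and 6.22-fold higher. Among the subunits, RELB read 4.46 and 2.50, 3.89-fold higher. The array labelled p53-/- 0 h was the lowest of the 8 arrays for 11 of the 12, and the 0 h array labelled p53+/+ the highest for 5. NFKBIZ, an atypical IkB protein, was the member that was lower, at -4.43 and -3.05. The most highly read members without a 2-fold difference were IER3 (4.50 and 4.87), NFKBIA, which encodes IkB alpha (4.44 and 4.03), and SOD2 (4.36 and 3.76). VCAM1 and LTB were not well above background on either array.

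Of 9 chemokines measured, 5 were higher and 1 lower, against 3.11% and 4.26% of all genes, with a median of 1.34. CXCL8, which attracts neutrophils, read -1.25 and -3.41, 4.46-fold higher on the 0 h array labelled p53+/+, and was not well above background on the 3 treated p53+/+ arrays. CCL20 (1.54 and -0.45), a ligand of CCR6, was 3.96-fold higher. CXCL5, CXCL3 and CXCL2 were 3.05-fold, 2.72-fold and 2.54-fold higher, whereas their relative CXCL1 read 3.90 and 5.06 and was 2.24-fold lower. CXCL16, CXCL12 and CXCL14 differed by 0.38, 0.03 and -0.75. CCL2, CXCL6, CXCL10 and CXCL11 were not well above background on any of the 8 arrays. Among the 5 called higher the 0 h array labelled p53+/+ was the highest of the 8 arrays for 3 and the 0 h array labelled p53-/- the lowest for 1. Without a filter on dim probes the median of the list became 0.00, since members not above background on either array count as 0.

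**Figure D3:**
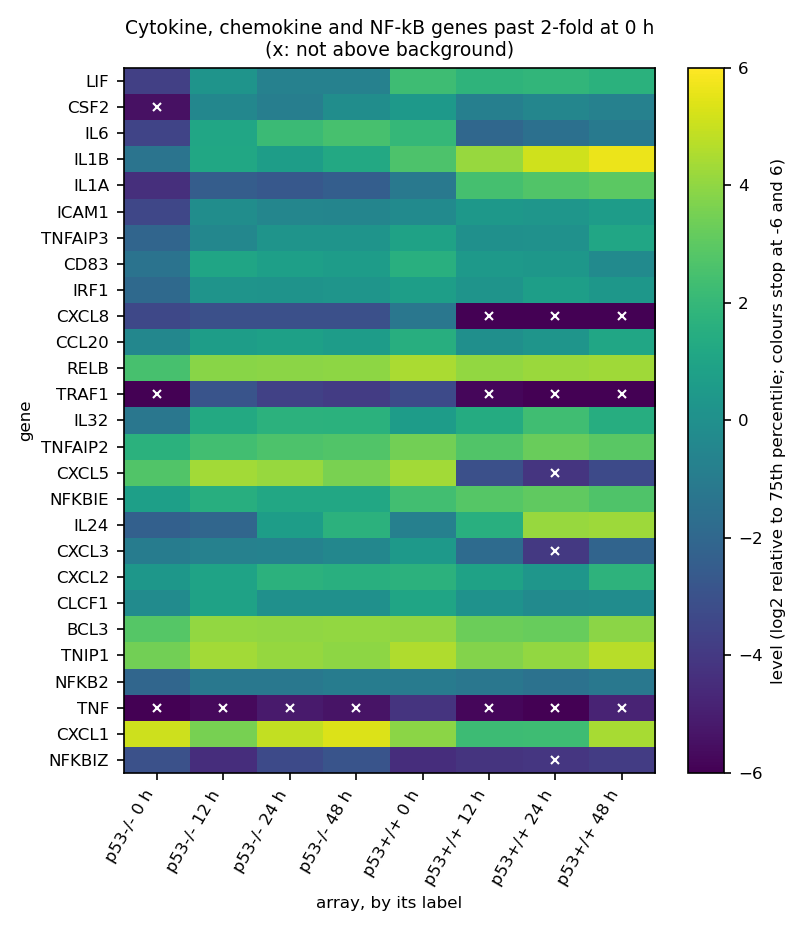
Levels (log2 relative to the 75th percentile, colours stopping at -6 and 6) of the 27 cytokine, chemokine and NF-kB genes with at least a 2-fold difference at 0 h, in rows, on the 8 arrays, in columns, with crosses where a probe was not well above background. LIF, CSF2, IL6 and ICAM1 are darkest on the 0 h array labelled p53-/-, and CXCL8 and TRAF1 are not above background on the treated p53+/+ arrays.

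A pair of promoters of this group is shown because they belong to CSF2 and IL6, the called members with the largest differences whose window holds the kB letters. The sequences are those of RefSeq (GRCh38.p14) from 250 bases before to 50 after the gene start, read 5′ to 3′ on the strand of the gene, with matches to GGNNNTTCC on either strand in capitals.
CSF2 (chr5:132073539-132073838, + strand): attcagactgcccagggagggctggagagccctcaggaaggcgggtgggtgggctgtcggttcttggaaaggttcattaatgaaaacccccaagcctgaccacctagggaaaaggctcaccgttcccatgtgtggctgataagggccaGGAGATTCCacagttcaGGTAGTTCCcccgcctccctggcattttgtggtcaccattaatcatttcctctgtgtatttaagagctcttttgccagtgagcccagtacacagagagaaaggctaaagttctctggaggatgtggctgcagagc
IL6 (chr7:22726950-22727249, + strand): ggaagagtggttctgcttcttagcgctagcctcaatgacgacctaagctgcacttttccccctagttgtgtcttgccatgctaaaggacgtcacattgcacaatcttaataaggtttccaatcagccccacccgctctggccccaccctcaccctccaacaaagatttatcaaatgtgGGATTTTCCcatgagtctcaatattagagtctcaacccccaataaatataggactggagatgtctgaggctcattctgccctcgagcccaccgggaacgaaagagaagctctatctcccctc
Of the 25 genes called higher in the 3 lists, 21 had a promoter in the table and 13 of these held the letters. Among the members not called higher the count was 6 of 17, and over all 27305 promoters 20.1% held them. A match is a string of letters and no evidence of binding.

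Genes of mitosis were lower on the 0 h array labelled p53+/+. Their products build the spindle, the kinetochore and the machinery of chromosome separation, and most are made in G2 and M phase. Of 30 measured, 18 were at least 2-fold lower and 0 higher, against 4.26% and 3.11% of all genes. The median difference was -1.12, and 28 of the 30 differences were negative. PLK1, a mitotic kinase, read -0.69 and 1.61, a 4.93-fold difference with a technical SD of 0.07. KIF20A, a kinesin of cytokinesis, read 0.38 and 2.65 over 10 spots and was 4.83-fold lower. CDC25C, the phosphatase that activates CDK1, was 4.08-fold lower at -1.04 and 0.99. The centromere proteins CENPA (-0.61 and 1.18) and CENPF (3.70 and 5.44) were 3.46-fold and 3.33-fold lower.

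Other mitotic genes stayed within 2-fold. The mitotic kinase CDK1 read 2.94 and 3.24, the survivin gene BIRC5 4.63 and 5.31, and the securin gene PTTG1 5.74 and 6.13. FBXO5 and MYBL2 were the members with a positive difference, at 0.46 and 0.36. For 17 of the 18 called genes the 0 h array labelled p53-/- held the highest level of the 8. The median level of the list was 2.52 on the 0 h array labelled p53-/- and 1.61 on the 0 h array labelled p53+/+. It was 1.96, 2.07 and 2.53 on the arrays labelled p53-/- 12, 24 and 48 h, and -0.07, -0.04 and -4.25 on those labelled p53+/+.

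Genes of DNA replication leaned the other way. Of 40 measured, 9 were at least 2-fold higher and 0 lower, against 3.11% and 4.26% of all genes. Of the 40 differences 38 were positive, with a median of 0.46. CCNE1, which encodes the G1/S cyclin E1, read 3.83 and 1.80, 4.08-fold higher. CDC6, which loads the MCM helicase, read -2.32 and -4.30 and was 3.94-fold higher. CCNE2 (1.17 and -0.39), the other cyclin E gene, and E2F2 (2.65 and 1.34), an S phase transcription factor, were 2.94-fold and 2.47-fold higher. MCM10, a replication initiation factor, read 0.62 and -0.60, 2.32-fold higher. The remaining 4, RRM2, FEN1, GINS3 and PCNA, were between 2.10-fold and 2.22-fold higher, and were named after their values were seen. The 0 h array labelled p53-/- was the lowest of the 8 arrays for 1 of the 9, and the 0 h array labelled p53+/+ the highest for 0. TK1 (6.33 and 5.88), MCM7 (5.99 and 5.51) and TYMS (5.14 and 4.74) had the highest levels among members within 2-fold. The median level was 2.41 and 1.77 on the 0 h pair, and 2.79, 2.78 and 2.46 on the arrays labelled p53-/- 12, 24 and 48 h.

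Replication-dependent histones, whose messages accumulate in S phase, did not follow the replication genes. Of 20 measured, 0 were higher and 3 lower, against 3.11% and 4.26% of all genes, with a median of -0.50. H1-4 (0.95 and 2.37), H1-5 (-0.87 and 0.30) and H3C2 (1.53 and 2.56) were 2.69-fold, 2.24-fold and 2.04-fold lower on the 0 h array labelled p53+/+. Their near-identical copies can share a probe, so single histone genes are uncertain.

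**Figure D4:**
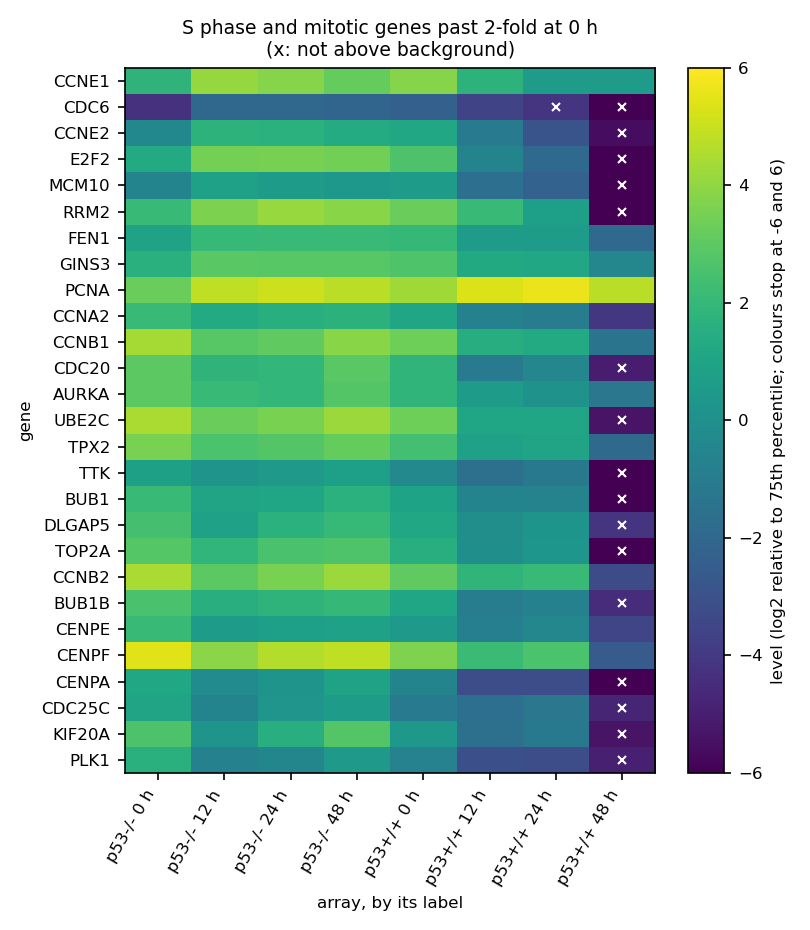
Levels (log2 relative to the 75th percentile, colours stopping at -6 and 6) of the 27 replication and mitotic genes with at least a 2-fold difference at 0 h, in rows, on the 8 arrays, in columns, with crosses where a probe was not well above background. The 9 genes from CCNE1 to PCNA are higher and the 18 from CCNA2 to PLK1 lower on the 0 h array labelled p53+/+ than on the 0 h array labelled p53-/-.

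Promoters of 4 cell cycle genes are shown, the called members of each list with the largest differences whose window holds the letters of an E2F site (TTTNNCGC, for CDC6 and E2F2) or of the cell cycle homology region (TTTGAA, for PLK1 and CENPA), a promoter element of G2/M genes. Both motifs were chosen after the differences were seen, both strands were searched, and matches are in capitals.
CDC6 (chr17:40287629-40287928, + strand): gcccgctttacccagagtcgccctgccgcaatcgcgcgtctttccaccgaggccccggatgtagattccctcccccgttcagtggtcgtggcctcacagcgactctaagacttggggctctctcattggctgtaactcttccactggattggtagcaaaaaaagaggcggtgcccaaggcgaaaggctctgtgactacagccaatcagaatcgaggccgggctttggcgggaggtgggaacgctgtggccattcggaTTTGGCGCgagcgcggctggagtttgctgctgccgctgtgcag
E2F2 (chr1:23531184-23531483, - strand): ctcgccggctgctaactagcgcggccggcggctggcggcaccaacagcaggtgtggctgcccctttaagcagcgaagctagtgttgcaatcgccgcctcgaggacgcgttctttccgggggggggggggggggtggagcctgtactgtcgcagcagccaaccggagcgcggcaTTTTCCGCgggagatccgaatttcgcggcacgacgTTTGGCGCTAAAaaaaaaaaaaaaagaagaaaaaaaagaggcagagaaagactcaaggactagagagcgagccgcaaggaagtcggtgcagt
PLK1 (chr16:23678639-23678938, + strand): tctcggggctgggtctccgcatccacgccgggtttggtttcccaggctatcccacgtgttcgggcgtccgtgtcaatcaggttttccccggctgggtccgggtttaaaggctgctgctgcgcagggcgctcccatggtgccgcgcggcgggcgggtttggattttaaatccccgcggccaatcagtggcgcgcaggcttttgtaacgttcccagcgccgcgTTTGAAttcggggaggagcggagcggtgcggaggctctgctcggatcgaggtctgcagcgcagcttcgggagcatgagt
CENPA (chr2:26785806-26786105, + strand): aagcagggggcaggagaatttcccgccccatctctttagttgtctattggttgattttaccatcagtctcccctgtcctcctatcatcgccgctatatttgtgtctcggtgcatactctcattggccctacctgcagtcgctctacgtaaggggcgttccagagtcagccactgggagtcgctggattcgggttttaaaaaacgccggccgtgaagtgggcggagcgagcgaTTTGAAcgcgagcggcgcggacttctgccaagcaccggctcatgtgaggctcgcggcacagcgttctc
TTTNNCGC lay in 4 of the 8 promoters of called replication genes, in 16 of 26 of the members not called, and in 6.9% of all promoters. TTTGAA lay in 8 of 14 promoters of called mitotic genes, in 5 of 10 of the others, and in 15.4% of all promoters.

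Of 36 genes measured in the list of classical p53 targets, 7 were at least 2-fold higher on the 0 h array labelled p53+/+ and 2 lower. Over all genes the shares were 3.11% and 4.26%. The list also held FST and CDC42BPG, which the study reported as new p53 targets. The other 27 did not reach 2-fold, and the median was 0.15. CDKN1A read -1.14 and -2.97, 3.56-fold higher with a technical SD of 0.09, against -0.96, -0.64 and -0.48 on the treated p53-/- arrays and 2.54, 2.63 and 2.70 on the treated p53+/+ arrays. The array labelled p53+/+ 0 h was thus under every treated p53-/- array for this gene. PLK2, a stress-induced kinase, read 1.49 and -0.46 and was 3.87-fold higher. PMAIP1, which encodes the BH3-only protein NOXA, read 1.05 and -0.30, 2.56-fold higher. FST, which encodes the activin antagonist follistatin, was 2.19-fold higher at -1.29 and -2.42. The other 3 called higher were AEN, TIGAR and TNFRSF10B, at 2.38-fold, 2.37-fold and 2.03-fold. For all 7 the 0 h array labelled p53-/- was the lowest of the 8.

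Several of the best known targets did not differ by 2-fold. MDM2 read -1.66 and -1.33 at 0 h, and from 1.29 to 1.76 on the treated p53+/+ arrays. BAX read 2.69 and 2.56, and FAS 0.04 and -0.30, both over 10 spots. TNFSF9, which encodes the costimulatory ligand CD137L and was reported by the study as a new target, read -0.04 and -0.65, a 1.53-fold difference. It read from 3.43 to 3.67 on the treated p53+/+ arrays, and 0.10, 1.69 and 1.55 on the arrays labelled p53-/- 12, 24 and 48 h. TP53I3 (4.75 and 4.66) and PERP (4.27 and 4.51), with the highest levels of the list, also stayed within 2-fold. EDA2R, a death receptor, and TP53INP1 were lower on the 0 h array labelled p53+/+, TP53INP1 by 3.19-fold at -2.47 and -0.80. CDC42BPG was not well above background on either array, at -6.82 and -5.35. MDM4, an inhibitor of p53, read -0.97 and 0.24 and was 2.31-fold lower. It belongs to a separate list of p53 and its regulators, where it was the 1 gene called of 12 measured, with a median of 0.04. Of all genes 4.26% were called lower.

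Immediate early genes differed in both directions. Of 27 measured, 6 were higher and 2 lower, against 3.11% and 4.26% of all genes, with a median of 0.22. DUSP5, a nuclear phosphatase of ERK, read -0.18 and -2.21, 4.09-fold higher, FOSB -2.01 and -3.90, 3.70-fold higher, and ATF3 1.06 and -0.77, 3.57-fold higher. DUSP1, a phosphatase of the stress kinases, read 3.49 and 4.52 over 10 spots, 2.04-fold lower. NR4A2, an orphan nuclear receptor, was 2.57-fold lower at -3.22 and -1.86. For all 8 called genes the 0 h array labelled p53-/- stood at its end of the range of the 8 arrays.

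Secreted growth factors were among the called genes of small lists. HBEGF, an EGF receptor ligand, read -0.41 and -3.48, 8.39-fold higher on the 0 h array labelled p53+/+, and NRG1 and EPGN, ligands of the same family, were 3.67-fold and 2.39-fold higher, of 13 measured with a median of 0.09 that turned negative under normexp. INHBA, the activin A subunit, read 3.50 and 1.07 over 10 spots and was 5.42-fold higher. In its list of 23 TGF-beta, activin and BMP genes 3 were higher and 3 lower, with a median of 0.02 that turned negative under quantile scaling and cyclic loess. ADM and VEGFA, a pair of hypoxia-induced vascular factors, were 4.51-fold and 3.77-fold higher, while DDIT4, an inhibitor of mTORC1, was 3.82-fold lower, of 28 glycolysis and hypoxia genes with a median of 0.17. DKK1, a secreted WNT inhibitor, was 3.48-fold lower at 3.36 and 5.16, and the WNT transcription factors TCF7 and LEF1 were 3.24-fold and 2.02-fold higher, of 13 measured with a median of 0.06. Over all genes 3.11% were called higher and 4.26% lower.

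**Figure D5:**
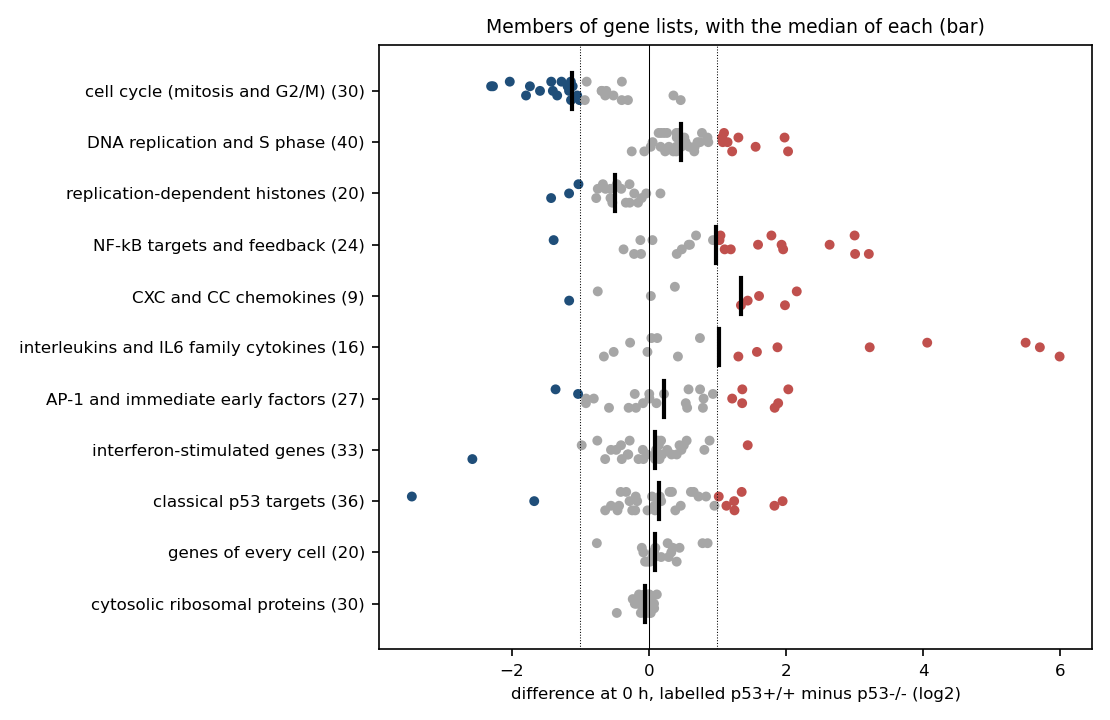
Differences at 0 h (log2, labelled p53+/+ minus p53-/-) of the measured members of 11 gene lists, 1 point per gene, red where at least 2-fold higher and blue where at least 2-fold lower, with the list median as a bar, list sizes in brackets and dotted lines at 2-fold. Mitotic genes centre at -1.12 and replication genes at 0.46, the cytokine lists reach to 5.99, and ribosomal protein genes centre at -0.05.

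Most other lists held few called genes, to be read against the 3.11% of all genes called higher and 4.26% called lower. Of 33 interferon-stimulated genes, GBP1 was 2.72-fold higher and IFIT1 at least 5.96-fold lower, shares near those of all genes, with a median of 0.09. TAP1, the peptide transporter of MHC class I loading, was 2.81-fold higher and ERAP2 2.14-fold higher of 17 antigen presentation genes, among which CALR and B2M differed by 0.30 and 0.06. Of 20 NRF2 targets 0 were higher, and GCLC and HMOX1 were 3.12-fold and 2.17-fold lower. Integrated stress response genes had ATF5 2.79-fold higher and HERPUD1 and NUPR1 2.71-fold and 2.37-fold lower, of 22. HMGCS1 was the 1 gene called of 31 of cholesterol and fatty acid synthesis, 2.54-fold higher. Of 20 heat shock genes HSPB8 was at least 3.04-fold and HSPA6 2.54-fold higher. SERPINB2 was at least 4.49-fold, SERPINB3 3.46-fold and SERPINB4 2.77-fold higher of 13 serpin and plasminogen activator genes, the last pair being near-identical copies.

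Genes with steady roles in every cell were close on both arrays. Of 30 cytosolic ribosomal protein genes 0 were called, with differences from -0.47 to 0.12 and a median of -0.05, which became positive without scaling and with spike-in or quantile scaling. Of 20 genes used in every cell 0 were called, with a median of 0.09 that turned negative under cyclic loess. GAPDH read 7.05 and 7.03, and ACTB 8.24 and 8.26.

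The pair had most markers of basal-like mammary epithelium and part of the luminal ones. Of 14 basal markers, 13 were well above background on each array, among them KRT5 (4.09 and 3.80), KRT14 (4.53 and 4.02) and KRT6A (6.76 and 6.01), while the probe for TP63 was not on either. Of 10 luminal markers, 7 were well above background on the 0 h array labelled p53+/+ and 6 on the 0 h array labelled p53-/-. KRT18 read 5.11 and 5.16 and KRT8 2.28 and 2.12, while KRT19, PGR and KIT were not on either. The 7 include ELF5, at -1.36 and, not well above background, -6.69, whose probe was left out of the comparison as a bright spot beside others on 1 array. Of 17 measured genes in the wider basal list, LAMB3 and KRT6B were 2.07-fold and 2.67-fold higher and ITGB4 2.29-fold lower on the 0 h array labelled p53+/+. The shares of all genes called, for this and the next 2 lists, were 3.11% higher and 4.26% lower. Of 12 measured luminal genes, FOXA1 was 2.94-fold higher, and CLDN4, GATA3 and ERBB3 were lower, by at least 4.48-fold, 2.09-fold and 2.03-fold. SNAI2 and TAGLN were 2.29-fold and 2.73-fold higher, and TWIST1 and TWIST2 2.44-fold and 2.27-fold lower, of 19 mesenchymal genes with a median of -0.11 that was positive without scaling. Some markers of other cells were also read. Of 7 leukocyte markers 3 were well above background on each array, CD14 (1.51 and 1.37), TYROBP (-2.95 and -3.02) and PTPRC (-3.74 and -4.00), with summed linear levels of 3.13 and 2.85 for the list, while CD3E, MS4A1 and ITGAM were among those that were not. Of 6 fibroblast markers 3 and 4 were, with sums of 54.4 and 58.6. Nearly all of that was DCN, which at 5.75 and 5.85 lay above KRT5 and KRT14. LUM read -1.32 and -1.11 and COL1A1 -3.21 and -2.31, PDGFRB was above background on the 0 h array labelled p53-/- alone, and COL1A2 and COL3A1 were on neither. Of 4 endothelial markers PECAM1 (-2.39 and -2.05) and CDH5 (-2.86 and -3.74) were above background and VWF and KDR were not, with sums of 0.378 and 0.374. Their part in the differences was not tested.

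The labelled genotype difference at 0 h was set beside that after ADR, which used other arrays. Over the same 13866 genes, 1385 (9.99%) were at least 2-fold higher and 1247 (8.99%) lower on the p53+/+ array at 12 h. The numbers were 1496 (10.8%) and 1594 (11.5%) at 24 h, and 2085 (15.0%) and 1751 (12.6%) at 48 h. Of the 431 genes higher at 0 h, 80, 81 and 85 were also higher at 12, 24 and 48 h, and 83, 99 and 103 were lower. Of the 590 lower at 0 h, 119, 162 and 171 were lower and 113, 98 and 98 higher.

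A difference in the same direction at all 3 treated times was found for 49 of the 431 (11.37%) and for 89 of the 590 (15.08%). The opposite direction at all 3 was found for 54 (12.53%) and 52 (8.81%). Over all genes, 5.87% were higher and 5.59% lower at all 3 times. Across genes, which are not independent replicates, the difference at 0 h had a correlation of -0.03, 0.02 and 0.02 with that at 12, 24 and 48 h. CDKN1A and IL1A were in the group higher throughout, with IL1A at 2.48, 2.76 and 2.98 on the treated p53+/+ arrays and -2.47, -2.70 and -2.40 on the treated p53-/- arrays. For lists, the median at 0 h uses bounds for genes not well above background, whereas the medians after ADR use differences as measured. The mitotic list was lower at all 4 times, with medians of -1.12, -1.71, -2.02 and -6.40. Its median level on the array labelled p53+/+ 48 h was -4.25, near the lowest level well above background there, -4.63. The size of the last median is therefore uncertain. The list of classical p53 targets, FST included, had medians of 0.15 at 0 h and 2.83, 2.54 and 2.20 after ADR.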

How the data were processed

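RNA of MCF10A cells was hybridised in 1 colour (Cy3) to the 8 arrays of an Agilent SurePrint G3 Human GE slide, each genotype and time on its own array. The authors deposited the output of Agilent Feature Extraction 10.7.3.1, whose processed signal is an intensity already corrected for background, and a series table with the same numbers (503808 of 503808 equal). No normalization between arrays is given in the sources used here. Groups come from the sample labels.

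Of 62976 spots, 58717 were not controls and made 42405 probes. Flagged spots (370 on the 0 h array labelled p53-/-, 360 on that labelled p53+/+ 0 h) and single-spot probes at least 4-fold above every other array with another such spot within 3 rows and columns (9 and 106 probes) were left out. Signals were divided by the 75th percentile of their array, put on the log2 scale and averaged over the spots of a probe. Accessions matched 27223 probes (64.22%) to RefSeq genes (GRCh38.p14), so no array coordinates are given, and of several probes of a gene the one with the highest 8-array mean was kept. A gene was called at 2-fold. Where the dimmer array was not well above background, its level or the lowest level well above background on that array (-5.16 and -5.24), whichever was higher, gave a bound, written as at least. With 1 array a side no test was run. The technical SD came from 999 probes in 10 spots. The number of arrays limits the precision.

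The members, lists and tests were chosen with earlier results of these data known. Named were TNFSF9, CDC42BPG, FST, CDKN1A, MDM2, BAX and FAS, the 10 largest differences each way (well above background on 1 other array too), and per list up to 5 called members, up to 3 further members with the highest levels and members at background. Other genes that complete a small count were named after their values were seen. A few genes these rules would name are not reported here. The 15 alternatives covered scaling, background correction, filters, spots, probes and the fold. The script that makes the 2-fold calls was tested on simulated data. The changes put in were larger than 2-fold and only in probes well above background on both arrays, so bounds were not covered. Tools were limma 3.58.1 in R 4.3.3 and pandas 2.3.3, numpy 2.4.6 and matplotlib 3.10.9 in Python 3.11.15.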

Additional observations from a re-analysis of the deposited data

Results flagged for a closer look

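Gene lists whose labelled genotype difference at 0 h had the opposite sign to that at every treated time were noted, among lists with at least 5 genes called one way. The median difference of the DNA replication genes was 0.46 at 0 h and -1.51, -1.81 and -3.70 at 12, 24 and 48 h. That of the NF-kB targets was 0.98 at 0 h and -0.02, -0.43 and -0.06 after ADR, and that of the chemokines 1.34 at 0 h and -0.71, -1.39 and -0.78. The NF-kB medians at 12 and 48 h were so small that their sign is uncertain. Medians at 0 h use bounds for genes not well above background, and those after ADR use differences as measured. The differences between 0 h and the treated times were not tested, since there is 1 array per genotype and time. The 0 h array labelled p53+/+ read the genes that separate the treated genotypes at the level of the p53-/- arrays. Those genes were chosen on treated arrays, so this does not decide its label.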

How the results depend on the processing

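The count of genes higher on the 0 h array labelled p53+/+ moved from 431 to 776 without scaling, 204 with normexp background correction and 119 at 3-fold, and lay between 336 and 545 under the other 12 alternatives. The count of genes lower moved from 590 to 359 without scaling, 334 with normexp and 162 at 3-fold, and lay between 489 and 708 otherwise. The genes that differed the same way at all 4 times went from 138 to 78 with normexp and 34 at 3-fold, and spike-in scaling was not run for them. With normexp the share of genes 2-fold different from the 0 h array labelled p53+/+ fell to 0.778% for p53-/- 12 h and 3.88% for p53-/- 0 h, in the same order. The causes were not tested, except that the 3-fold rule is stricter by its construction. The alternatives for pairs of arrays were chosen after seeing the data. Of 2163 values for 156 genes, 2074 stayed on their side of 2-fold, 89 fell under it and 0 changed direction. Of 532 values for the medians of 38 lists, 120 moved by more than the median technical SD of the list. The median of mitotic genes ranged from -1.20 to -0.92, of replication genes from 0.37 to 0.67, of NF-kB targets from 0.69 to 1.19, of classical p53 targets from 0.09 to 0.36, of interleukins from 0.00 to 1.23 and of chemokines from 0.00 to 1.55. No paired analysis was possible because each group is 1 array. Dim probes limit the low end: 95 genes called higher and 102 called lower rest on a bound, and 245 and 336 on a single spot.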

Other observations

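FOXO and glucocorticoid receptor targets were put together after their values were seen, so their values are a description and support nothing about the group. Beside DEPP1 and ZBTB16, PDK4, the kinase that turns down pyruvate dehydrogenase, read -0.81 and 2.11, 7.56-fold lower. TSC22D3, which encodes the glucocorticoid-induced leucine zipper protein, read 1.95 and 3.76, 3.51-fold lower, and IRS2, an insulin receptor substrate, 0.87 and 2.55, 3.20-fold lower. FKBP5 (1.74 and 2.36), KLF9 (1.65 and 2.17) and SGK1 (2.47 and 2.69) stayed within 2-fold.

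Clock genes, also grouped after their values were seen, differed in part. Of 15 measured, DBP, BHLHE41, BHLHE40 and PER2 were higher, by 5.59, 1.44, 1.20 and 1.09 on the log2 scale, and NFIL3 and RORA lower, NFIL3 at 0.95 and 2.97. The shares of all genes called were 3.11% higher and 4.26% lower. PER1 read 1.63 and 1.60, BMAL1 0.93 and 1.65, and CLOCK -1.17 and -1.47.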
